A study of Mus musculus with 4 samples.

Results

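Inhibition in the brain is carried by GABA and glycine, and 25 genes with roles in making, moving, sensing and clearing these transmitters were followed here. They were taken by symbol from a fixed list of such genes, by a rule that uses no measured value, and all 25 were found among the 15818 genes of the deposited table. RNA was sequenced from olfactory bulbs of male mice aged 2 to 5 months, in 2 libraries from Unc80 S/S mice and 2 from Unc80 G/G mice. Samples are described as pooled from 3 mice each, with an n of 6 per genotype, and whether that n counts mice or samples is not stated. Both lines are constitutive CRISPR/Cas9 knock-ins at the same edited serine codon, made in embryos of B6D2F1 females. In Unc80 S/S mice, labelled unedited, the codon AGC was replaced by TCC, which keeps serine and prevents editing. In Unc80 G/G mice, labelled edited, it was replaced by GGC, which encodes glycine as the edited RNA does. No unmodified mice were analysed here. The table gives 1 mean per genotype, in CPM (counts scaled to 1000000 counted reads of a library), so a difference between the means carries no error from the spread between libraries. For 4 of the 25 genes the reads of each library could be recovered from the means, and only for these could the genotypes be tested.

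GABA is the main inhibitory transmitter of the brain, and glycine shares this role in the brainstem and spinal cord. GABA is made from glutamate by the glutamate decarboxylases, loaded into vesicles by the vesicular inhibitory amino acid transporter, and cleared by transporters of neurons and astrocytes. It opens chloride channels of the GABA-A family, which are pentamers of subunits, and acts through GABA-B receptors that couple to G proteins. The olfactory bulb is rich in GABA neurons: granule and periglomerular cells are inhibitory interneurons that form synapses onto the dendrites of mitral and tufted cells, the output neurons of the bulb.

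The libraries held 35465913 to 38051810 reads. The genotype means imply that 24738078 to 26479648 reads per library were counted in genes. Markers of the tissue were present: all 13 listed markers of bulb interneurons were in the table, with a summed level of 2614 CPM in unedited and 2619 CPM in edited bulbs, and so were all 7 of mitral and tufted cells (1657 and 1612 CPM). The 6 astrocyte markers summed to 3197 and 3292 CPM. Markers of neighboring tissue were low, with *Neurod6* and *Fezf2* of the cortex at 1.47 to 1.86 CPM and 4 markers of the striatum at 27.6 and 26.5 CPM in sum. *Omp* and *Gng13*, carried by axons of olfactory sensory neurons, summed to 128.7 and 143.6 CPM. All 3 endothelial markers were higher in edited bulbs (99.6 and 105.9 CPM in sum). Of 4 choroid plexus markers 3 were in the table, at 4.89 and 8.11 CPM in sum. *Ttr* among them had 12 and 34 reads in the unedited and 66 and 117 in the edited libraries (log2 fold change 2.03 ± 0.33, SE, adjusted p = 0.0168 from edgeR). *Tmem72* was also higher in edited bulbs (1.27 and 2.03 CPM), and *Kl* was lower (2.74 and 2.43 CPM). In bulk tissue, fewer cells of a type and less RNA per cell cannot be told apart.

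Of the 25 genes, 1 was more than 1.1-fold higher in edited bulbs (*Glra1*) and 1 was more than 1.1-fold lower (*Glra3*). Over all 15818 genes, 9.57% were past this fold in the first direction and 8.49% in the second. Both genes were in the low range of the table, where folds spread widely. None of the 22 members that averaged 20 CPM or above was past 1.1-fold, beside 3.12% of the 8299 genes at that level, and none of the 23 that averaged 5 CPM or above, beside 9.15% of 12508. No member was past 1.5-fold, beside 0.518% of all genes. For 19 of the 25 genes the means lay within 1.05-fold of each other, as they did for 60.3% of all genes and 79.6% of those of at least 20 CPM, the level of 22 members. The 95% counting interval of the log2 ratio, which covers counting error only, excluded 0 for 12 members, beside 15.5% of all genes and 20.7% of those of at least 20 CPM. The means of 18 genes were lower and those of 7 (28%) higher in edited bulbs, where 47.2% of all genes were higher. The median log2 ratio (edited over unedited bulbs) was -0.022 for the list and -0.005 for all genes. The median size of the log2 ratio, whatever its sign, was 0.05 for both. Among genes of at least 20 CPM this size was 0.047 for the members and 0.036 for all genes. In size, the ratios of all 25 genes lay below the 95th percentile of the same ratio among the recovered genes of their level. On the log2 scale this percentile was 0.10 from 100 CPM upward and 0.15 between 20 and 100 CPM. It was 0.24 between 5 and 20 CPM and 0.48 between 1 and 5 CPM. By definition 95% of the recovered genes of a level lie below it, so members below it are the usual case. Means as high as that of *Gad1* could not be recovered, so the top level rests on lower genes.

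**Figure D1:**
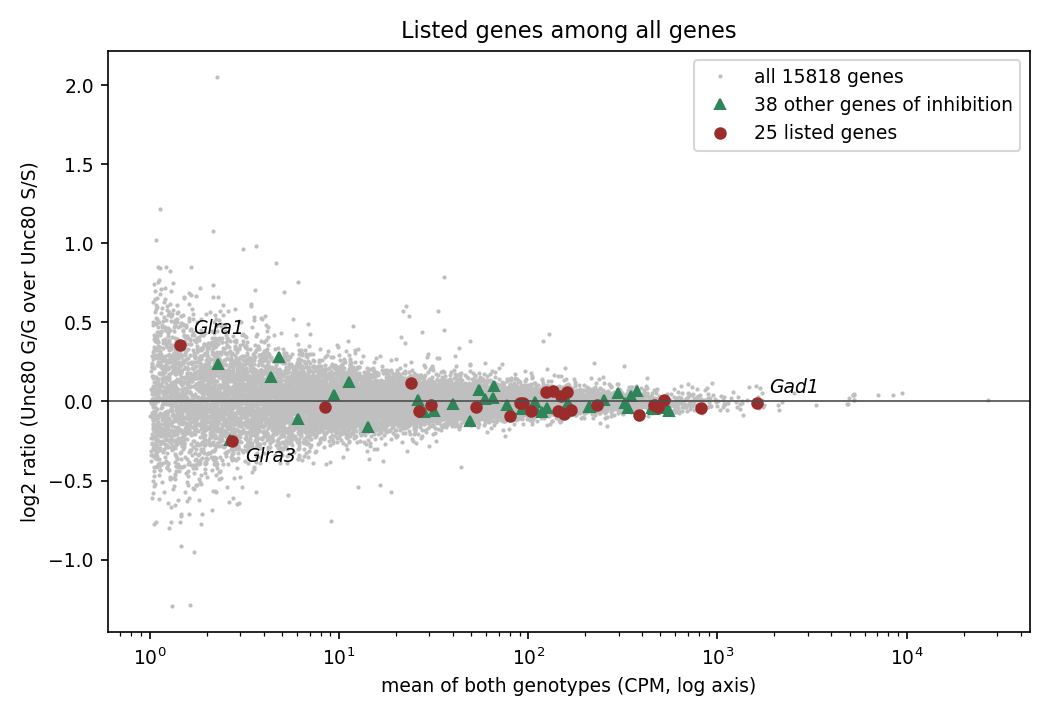
Log2 ratio of the genotype means (edited over unedited, vertical) against the mean of both genotypes in CPM (horizontal, log axis) for all 15818 genes (gray), the 25 listed inhibition genes (red circles) and 38 other genes of inhibitory transmission (green triangles). The cloud narrows as the level rises. The 2 listed genes past 1.1-fold, *Glra1* and *Glra3*, lie at its wide end, and *Gad1*, the most abundant member, lies at a ratio of -0.01.

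The enzymes of GABA synthesis were among the most abundant members and differed by less than 1% between the genotypes. *Gad1*, which encodes the form of glutamate decarboxylase that supplies most GABA of the cell, had a mean of 1618 CPM in unedited and 1606 CPM in edited bulbs. *Gad2*, which encodes the form that is concentrated at nerve endings, had 520.0 and 524.0 CPM. The differences were -0.759% for *Gad1* and 0.780% for *Gad2* (edited against unedited), and the 95% counting interval of either included 0. A counting interval is an exact binomial interval on the reads behind the means and covers counting error only, not the spread between pools. *Abat*, the transaminase that breaks GABA down, had 491.7 and 480.3 CPM, a difference of -2.32% (counting interval -4.03 to -0.580%). Per kilobase of annotated exon, *Gad1* stood at 211.9 and 210.3 CPM, above *Gad2* at 88.5 and 89.2 CPM. *Gad1* was 2.38-fold above *Gad2* by the length of all exons and 5.29-fold by that of the longest coding transcript, so the order held and the size depended on the gene model.

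The transporters that load and clear GABA and glycine differed by under 5%, and not all in 1 direction. *Slc32a1* encodes the vesicular transporter that fills synaptic vesicles with GABA or glycine, and its reads were recovered in each library. It had 160.2 and 154.2 CPM in the unedited libraries and 164.0 and 164.3 CPM in the edited libraries, the shallower library of each genotype first. The genotypes did not overlap, as was the case for 32.5% of all 2212 recovered genes. The log2 fold change was 0.06 ± 0.04 (SE), with a 95% interval of -1.74 to 11.0% and an adjusted p of 0.989 from edgeR's quasi-likelihood test. By annotation 24.9% of its exon bases face exons of a gene model on the opposite strand, Gm14205, and counting by strand is not stated, so that reads there cannot be told apart. *Slc6a11*, the GABA transporter GAT3 of astrocytes, had 829.6 and 805.4 CPM, which is -2.92% (counting interval -4.23 to -1.59%), and was the second most abundant member per kilobase. The 6 astrocyte markers were higher in sum in edited bulbs (3197 and 3292 CPM), 5 of them singly, and their part in this result was not tested. *Slc6a9*, the glycine transporter GlyT1, had 91.1 and 90.4 CPM (-0.820%, counting interval -4.82 to 3.32%). Of its exon bases, 30.3% face exons on the opposite strand.

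The subunits of GABA-A receptors split by kind, with the listed alpha subunits lower and the listed beta subunits higher in edited bulbs, all by less than 7%. Alpha subunits shape how the receptor responds to GABA and to benzodiazepines. *Gabra5*, whose product is typical of receptors outside synapses, had 158.4 CPM in unedited and 149.8 CPM in edited bulbs, a difference of -5.45% (counting interval -8.38 to -2.43%). *Gabra3* had 146.4 and 140.3 CPM (-4.14%, counting interval -7.22 to -0.967%). *Gabra2* had 106.0 and 101.5 CPM (-4.29%, counting interval -7.89 to -0.547%). *Gabra4*, which pairs with the delta subunit in receptors that carry tonic inhibition, had 83.2 and 77.9 CPM (-6.36%, counting interval -10.4 to -2.19%). The counting intervals of these 4 lay below 0, as did those of 8.01% of all genes and 11.3% of those of at least 20 CPM. The spread between pools was not available for these genes, and the means of the genotypes differed by up to 7.17% in 95% of the 113 recovered genes of at least 100 CPM and by up to 11.1% in 95% of the 443 between 20 and 100 CPM, where *Gabra4* lies. The 4 alpha differences lie within these ranges. C57BL/6J mice are known to carry an intronic variant that lowers *Gabra2*. The embryo donors were B6D2F1 females, which have a C57BL/6 and a DBA/2 parent, and the sires are not stated. Whether either line carries that variant was not tested.

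The alpha subunits are also where the GABA-A family meets the topic of the study, because the transcript of *Gabra3* is itself a known target of A-to-I editing. The edited base lies in an isoleucine codon in the part of the message that encodes the third membrane segment, and editing turns it into a methionine codon. In the coding sequence of GENCODE M21 (GRCm38) this is residue 342, in exon 9 at chrX:72445292-72445294 on the minus strand. The aligned codons are residue 317 of *Gabra2* (chr5:70973533-70973535), residue 323 of *Gabra4* (chr5:71624020-71624022) and residue 324 of *Gabra5* (chr7:57413703-57413705), all on the minus strand. The stretches are shown to compare the edited message with its closest relatives among the members, as the coding strand from 5′ to 3′, with the codon in capitals and 24 bases on each side.
Gabra3: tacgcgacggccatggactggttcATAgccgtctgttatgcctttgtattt
Gabra2: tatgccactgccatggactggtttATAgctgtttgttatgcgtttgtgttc
Gabra4: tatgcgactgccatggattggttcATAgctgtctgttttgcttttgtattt
Gabra5: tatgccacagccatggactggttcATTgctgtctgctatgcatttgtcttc
The isoleucine codon is ATA in *Gabra3*, *Gabra2* and *Gabra4* and ATT in *Gabra5*. The editing level of *Gabra3* cannot be read from a table of gene means and was not analysed here. Its total level, at 36.5 CPM per kilobase over both genotypes, was the second highest of the 4 alpha subunits after *Gabra5* at 51.8 CPM per kilobase.

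Beta subunits are needed to form and deliver the receptor. *Gabrb1* had 121.0 CPM in unedited and 126.1 CPM in edited bulbs (4.16%, counting interval 0.575 to 7.89%), and *Gabrb2* had 147.5 and 151.4 CPM (2.63%, counting interval -0.597 to 5.95%). The gamma subunits of the list were low in level and went both ways. *Gabrg1*, known from glial and some neuronal receptors, had 23.0 and 24.9 CPM, at 8.51% the largest difference of any GABA-A subunit in the list (counting interval 0.195 to 17.6%). *Gabrg3* had 26.9 and 25.8 CPM (-4.18%, counting interval -11.2 to 3.46%). *Gabrd*, the delta subunit of receptors outside synapses, had 30.9 and 30.4 CPM (-1.50%, counting interval -8.26 to 5.70%). None of the 9 GABA-A subunits of the list was past 1.1-fold.

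Per kilobase, the subunit genes ranged from 2.21 to 51.8 CPM, and their order was the same in both genotypes. Over both genotypes *Gabra5* stood at 51.8 CPM per kilobase, *Gabra3* at 36.5, *Gabrb2* at 23.5, *Gabra2* at 13.6, *Gabra4* at 13.2, *Gabrd* at 10.7, *Gabrb1* at 8.93, *Gabrg1* at 3.04 and *Gabrg3* at 2.21. *Gabra2* and *Gabra4* are neighbors in this order that lie closer together than the genotypes did, and they change places when the longest coding transcript sets the length.

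Many GABA-A genes lie in clusters, and the listed genes differed in direction on chromosome 5 but not on chromosome 7. On chromosome 5, *Gabrg1*, *Gabra2*, *Gabra4* and *Gabrb1* lie within 1.40 megabases (70751047 to 72149037, GRCm38), with log2 ratios from -0.09 for *Gabra4* to 0.12 for *Gabrg1*. *Gabra4* (minus strand, 71569749 to 71658308) and *Gabrb1* (plus strand, 71658113 to 72149037) start head to head with overlapping bounds, and *Gabra4* was lower and *Gabrb1* higher in edited bulbs. On chromosome 7, *Gabrg3* (56716465 to 57387188) and *Gabra5* (57407672 to 57510059) are neighbors on the minus strand, and both means were lower in edited bulbs, at log2 ratios of -0.06 and -0.08. *Gabrb2* lies on chromosome 11 (42419757 to 42629028), *Gabra3* on the X chromosome (72432681 to 72656848) and *Gabrd* on chromosome 4 (155384980 to 155398112).

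**Figure D2:**
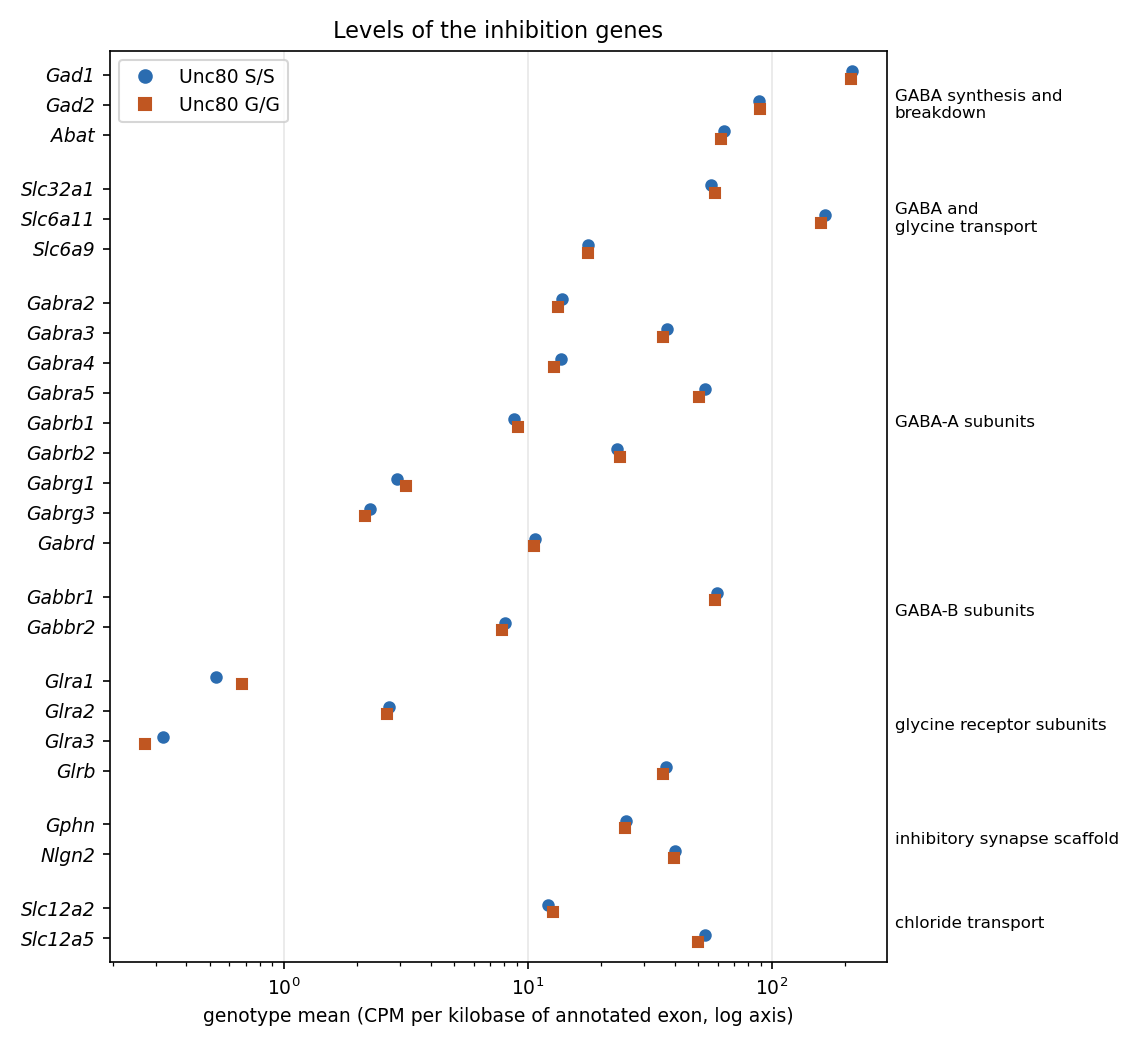
Genotype means of the 25 genes in CPM per kilobase of annotated exon (horizontal, log axis), grouped by role, with unedited (Unc80 S/S) as blue circles and edited (Unc80 G/G) as orange squares. *Gad1* and *Slc6a11* are highest at 159 to 212 CPM per kilobase and *Glra1* and *Glra3* lowest at under 1. The symbols of the genotypes nearly coincide for all genes but *Glra1* and *Glra3*.

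GABA-B receptors, which work as a pair of different subunits, showed less than 3% between the genotypes. *Gabbr1*, whose product binds GABA, had 463.0 CPM in unedited and 455.9 CPM in edited bulbs (-1.54%, counting interval -3.31 to 0.269%). *Gabbr2*, whose product couples to the G protein, had 53.7 and 52.5 CPM (-2.27%, counting interval -7.38 to 3.12%). The partners were unequal in message, as *Gabbr1* was 7.45-fold above *Gabbr2* per kilobase of exon and 9.48-fold by the longest coding transcript.

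Glycine receptors held both genes past 1.1-fold, and these were the least abundant members. The channel is built from alpha subunits, which bind glycine, with a beta subunit that anchors it to gephyrin. *Glra1*, the adult alpha subunit of spinal cord and brainstem, had 1.27 CPM in unedited and 1.63 CPM in edited bulbs. This is 28.2% higher in edited bulbs, with a counting interval of -8.35 to 80.2%, so the difference was within counting error. The unedited libraries held 80 and 73 reads of *Glra3*, a further alpha subunit, and the edited libraries 54 and 71. At 3.17, 2.76, 2.18 and 2.80 CPM the libraries of the genotypes overlapped. The log2 fold change was -0.25 ± 0.20 (SE), with a 95% interval of -36.9 to 12.7% and an adjusted p of 0.989 from edgeR.

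*Glra2*, the alpha subunit best known from the developing brain, was the highest of the alpha subunits, 4.44-fold above *Glra1* per kilobase. The unedited libraries held 220 and 221 of its reads and the edited libraries 184 and 233, or 8.72, 8.35, 7.44 and 9.19 CPM. The edited libraries lay on either side of both unedited libraries. The log2 fold change was -0.04 ± 0.12 (SE, 95% interval -17.9 to 16.1%, adjusted p = 0.991 from edgeR). Its sign rested on 1 library, since the fold change became 0.11 once the shallower edited library was left out and -0.20 once the deeper was. *Glrb*, the beta subunit, had 172.1 and 166.2 CPM (-3.47%, counting interval -6.33 to -0.537%) and stood 13.6-fold above *Glra2* per kilobase. *Slc6a5*, the glycine transporter that marks glycine neurons of brainstem and spinal cord, was not among the genes of the table.

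The genes of proteins that hold inhibitory receptors in place differed by less than 2% between the genotypes. *Gphn*, which encodes gephyrin, the scaffold under GABA-A and glycine receptors, had 94.7 CPM in unedited and 94.0 CPM in edited bulbs (-0.709%, counting interval -4.63 to 3.35%). *Nlgn2*, the neuroligin of inhibitory synapses, had 232.3 and 229.0 CPM (-1.41%, counting interval -3.91 to 1.15%).

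The chloride transporters, whose balance sets whether GABA inhibits or excites a neuron, differed in opposite directions between the means. *Slc12a5* encodes KCC2, which pumps chloride out of mature neurons, and had 394.7 CPM in unedited and 372.0 CPM in edited bulbs. The difference was -5.75% (counting interval -7.61 to -3.86%), and its spread between pools is not known. *Slc12a2* encodes NKCC1, which brings chloride in and is found in immature neurons and in other cell types. It had recovered values of 135.7 and 129.7 CPM in the unedited libraries and 143.4 and 134.4 CPM in the edited libraries. The genotypes overlapped, and the log2 fold change was 0.07 ± 0.05 (SE, 95% interval -0.03 to 0.16 on the log2 scale, adjusted p = 0.989 from edgeR). The endothelial markers given above were also higher in edited bulbs. So was the sum of the choroid plexus markers, though *Kl* among them was lower. The part of these cell types in the *Slc12a2* result was not tested. The *Slc12a2* fold change was 0.02 once the shallower edited library was left out and 0.11 once the deeper was. *Slc12a5* was 4.14-fold above *Slc12a2* per kilobase over both genotypes. Whether the ratio of the transporters differed between the genotypes was not tested, because *Slc12a5* has no value per library.

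**Figure D3:**
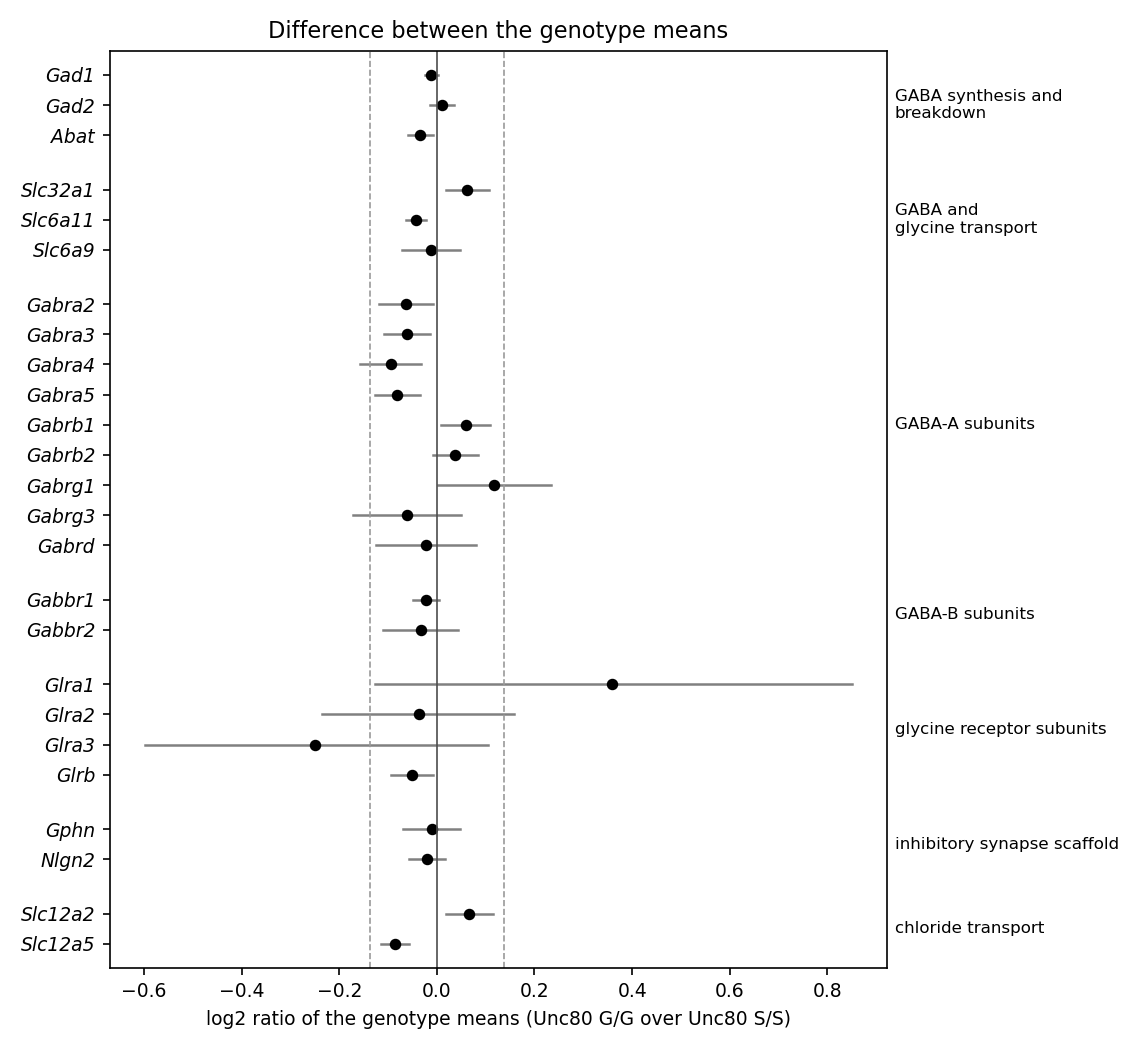
Log2 ratio of the genotype means (edited over unedited, horizontal) of the 25 genes, grouped by role. Points are the ratios, bars are 95% counting intervals, which leave out the spread between pools, and dashed lines mark 1.1-fold. The points of *Glra1* and *Glra3* alone lie outside the dashed lines, and their bars cross 0.

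**Figure D4:**
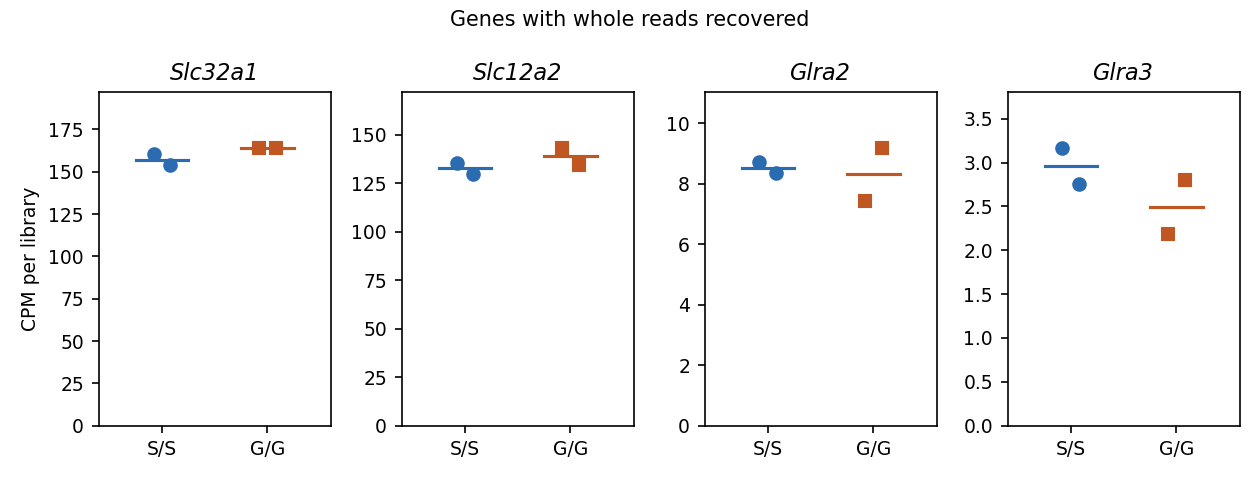
CPM in each library (points) and genotype means (lines) for the 4 genes whose reads were recovered, with axes that start at 0, in unedited (Unc80 S/S, blue circles) and edited (Unc80 G/G, orange squares) bulbs, n = 2 libraries each. The genotypes overlap for *Slc12a2*, *Glra2* and *Glra3* and not for *Slc32a1*, where 160.2 and 154.2 CPM stand beside 164.0 and 164.3 CPM.

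None of the 4 testable members was called by edgeR, at an adjusted p under 0.05 or at an unadjusted p under 0.05, and none by DESeq2 or limma. Over the 2212 recovered genes edgeR called 0.0904% at the adjusted and 5.15% at the unadjusted threshold. The 2 pools per genotype limit what these tests can see: among the 556 recovered genes of at least 20 CPM the median standard error of a log2 fold change was 0.06. The recovered genes lean to low levels, since recovery succeeded for 37.8% of genes below 2 CPM but for 5.47% from 50 CPM upward.

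Further genes of inhibitory transmission, 46 listed by name, were counted where they were in the table, which held 38. Their median log2 ratio was -0.02, with 14 higher and 24 lower in edited bulbs, where 47.2% of all genes were higher. Of the 38, 3 were past 1.1-fold upward and 2 downward, beside 9.57% and 8.49% of all genes. The 1 past 1.2-fold was *Kctd16*, an auxiliary subunit of GABA-B receptors, at 4.34 CPM in unedited and 5.26 CPM in edited bulbs (counting interval 1.47 to 46.1%). Over all genes 5.74% were past 1.2-fold. *Gabarapl1*, of the family that binds GABA-A receptors and takes part in autophagy, was the most abundant of these 38 genes per kilobase, at 324.2 and 322.6 CPM or 160.7 CPM per kilobase over both genotypes. *Aldh5a1*, which takes the product of *Abat* onward, had recovered values of 156.1 and 169.6 CPM in the unedited and 163.8 and 160.3 CPM in the edited libraries, with a log2 fold change of -0.01 ± 0.05 (SE, adjusted p = 0.993 from edgeR). *Gcsh*, a part of the glycine cleavage system, had 29.6 and 35.5 CPM beside 31.2 and 31.1 CPM. In both genes the edited libraries lay between the unedited libraries.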

How the data were processed

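Olfactory bulb RNA of 4 pooled libraries, 2 per genotype, was sequenced. Trimming, alignment to GRCm38 (mm10) and the comparison of genotypes were done by the authors in Partek Flow, with aligner, annotation, normalization and model not given in the sources used here. As to the kit, the methods name a stranded total RNA kit and the labels an mRNA kit. The deposited CPM values are 1 least-squares mean per genotype, and the deposited counts are total reads per library. The table also holds the authors' p-values, adjusted p-values, ratios and fold changes of the genotypes, which were not used.

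Labels give replicate numbers, but nothing ties them to the recovered libraries, and p-values measure the spread between 2 pools per genotype. The levels fit whole reads of 2 libraries plus an offset of 0.0001 CPM in 2212 genes (14.0%), within 2e-11 CPM (wider in proportion for the highest means) and with a chance of another fit under 1e-04. The other means did not meet these conditions. The last condition cannot be met by the highest means, whatever reads lie behind them, so whole reads were not excluded there. The recovered reads were tested with edgeR 4.0.16, with the counted reads implied by the means as library sizes. Benjamini-Hochberg adjustment was over all 2212 genes. DESeq2 1.42.0, limma 3.58.1 on log2(CPM + 1), TMM, a minimum of 5 CPM and leaving out each library were alternatives. Recovery and edgeR were tested on simulated data. Exon lengths came from GENCODE M21, where all 25 symbols matched. Levels per kilobase use all annotated exons. Software was R 4.3.3, biopython 1.88, scipy 1.17.1, pandas 2.3.3, numpy 2.4.6 and Python 3.11.15.

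The members, lists, folds and tests were chosen with earlier results of these data known. All 25 members are named. Of the other genes of inhibition, those past 1.2-fold, with recovered reads or highest in their class were to be named, and some of these are not reported here. *Slc6a5* is named as a marker.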

Additional observations from a re-analysis of the deposited data

How the results depend on the processing

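The count of listed genes past 1.1-fold was 2, and stayed 2 on log2(CPM + 1) and after centring on the median of all genes. It was 1 at 1.2-fold, 0 at 1.5-fold and 0 among members with a mean of at least 5 CPM. All 50 values of single members under the pseudocount or the centring moved by less than their counting interval. The number of recovered genes called by edgeR was 2. It was 6 with TMM, 1 with DESeq2, 2 with limma and 0 among genes of at least 5 CPM, and 0 to 2 with 1 library left out, where the lone library is assumed to vary like the other genotype. No member was among the calls in any of these fits. Of 31 alternative fits of the 4 recovered members, 1 turned the sign: *Glra2* ran from -0.20 to 0.11 with 1 library left out. The leave-one-out log2 fold changes ran from -0.44 to -0.08 for *Glra3*, from 0.02 to 0.11 for *Slc12a2* and from 0.03 to 0.09 for *Slc32a1*, and no adjusted p was under 0.808. The 5 most abundant members per kilobase were the same 5 with either gene length. No paired analysis was possible because the recovered libraries carry no replicate number. For the other 21 members the table gives 1 mean per genotype, so no library could be left out.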
